A study of Caenorhabditis elegans with 34 samples.

Results

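The rows described here are 200 of the 16762 rows in the expression tables of a Caenorhabditis elegans series, chosen because they were high in sorted intestinal cells of third-stage larvae (L3) and low in those cells at earlier stages. They are called L3-peak rows below. The choice used the deposited normalised counts, which are raw counts divided by 1 constant per library. A row had to have a mean in L3 GFP-positive cells that gave a log2 ratio of at least 1 over L3 GFP-negative cells, after 10 was added to each mean. It also had to reach at least 50 in all 3 L3 GFP-positive libraries and to exceed 3 times its mean in GFP-positive cells of first-stage larvae (L1). The 914 rows that passed were ranked by the L3 GFP-positive mean over the larger of the embryo and L1 GFP-positive means, again with 10 added, and the top 200 were taken. The rows were thus chosen by measured values. This peak ratio, the L3 sort ratio and the GFP-positive levels at all 3 stages are part of the choice and are given as descriptions. The tables pair no row with a gene, so a row is referred to by its number. No gene name, function or sequence is therefore attached to a row, and the markers of intestine and of other cell types were not checked.

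All groups came from strain JM149, which carries caIs71, an array of green fluorescent protein (GFP) fused to histone HIS-2B under the elt-2 promoter, with the marker rol-6(su1006). Every library, controls included, carries this transgene. GFP-positive cells were sorted as intestine cells, 300000 per sample, and GFP-negative cells as non-intestine cells, 1000000 per sample. Unsorted dissociated cells (70 µl of suspension) and whole animals (10 µl of pelleted, pooled animals) were the other fractions, at the embryo, L1 and L3 stages. Larvae were broken up with SDS-DTT (2 min), pronase E (30 min) and 100 dounce strokes. Embryos were treated with chitinase (20 min), pronase E (5 min) and 100 strokes of a syringe needle. Stage and dissociation protocol thus cannot be told apart between embryos and larvae.

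As background, the worm intestine is a tube of large polyploid cells that digests food, stores fat and meets ingested microbes. ELT-2 is a GATA transcription factor that is active there from the embryo onwards, so its promoter marks the tissue at every stage. Larval stages are separated by molts, and many larval transcripts rise and fall once per stage.

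The tables hold 30 of the 34 labelled libraries, and 4 labelled as the second L1 replicate are not analysed here. Groups held 3 libraries, except that all L1 groups, dissociated embryo cells and whole embryos held 2. Embryo libraries held 20252498 to 49400873 counts, L1 libraries 14608535 to 49077624 and L3 libraries 10994387 to 26523420. The sequencer was a HiSeq X-ten for L1 replicate 1 and a NovaSeq for the rest, so in L1 the replicate and the instrument cannot be told apart. Counts are not divided by transcript length, so levels are compared between libraries of a row and not between rows.

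The L3-peak rows were scarce in GFP-positive cells before L3. Over the 200 rows, GFP-positive cells had a median normalised count of 12.7 at the embryo stage, 18.6 at L1 and 1791 at L3. Of the 200 rows, 91 had an embryo GFP-positive mean under 10 and 66 had such an L1 mean. In both stages 42 rows were under 10. The peak ratio had a median of 34.1, quartiles of 22.5 and 63.2 and a maximum of 2567, and it exceeded 100 in 29 rows. Between the earlier stages, 120 rows had the higher GFP-positive mean in L1 and 80 in embryo.

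At the limit of 200 the peak ratios formed a smooth series. The last rows taken, 6984, 3763 and 11021, had ratios of 17.27, 17.0 and 16.92. The first rows left out, 5860, 10405 and 12072, had ratios of 16.88, 16.66 and 16.61.

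The row with the largest peak ratio, row 14689, had normalised counts of 11150, 69374 and 16549 in L3 GFP-positive replicates 1, 2 and 3. The L3 GFP-negative libraries of equal number had 15423, 7545 and 6938. GFP-positive replicate 2 was thus far above the rest, while in replicate 1 the GFP-positive library was below the GFP-negative one. In GFP-positive cells of the earlier stages the row had 0 in all 3 embryo libraries and 0 and 5 in the L1 libraries. Whole L3 animals had 103995, 65125 and 63728, so 2 of the 3 GFP-positive libraries lay far below every whole-animal library.

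The next rows in peak ratio were 577, 2440, 14691, 16114, 8431, 4102 and 12591. Their peak ratios ran from 1368 for row 577 to 377 for row 12591. Of the 8 rows with the largest ratios, 7 had their highest GFP-positive value in L3 replicate 2. In L3 replicate 1, GFP-positive cells had less than GFP-negative cells in 7 of them. Row 577, for example, had 7306, 42190 and 15036 in L3 GFP-positive replicates 1, 2 and 3, against 12436, 5386 and 5275 in the GFP-negative libraries. The GFP-positive and GFP-negative ranges overlapped in this row through replicate 1.

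**Figure D1:**
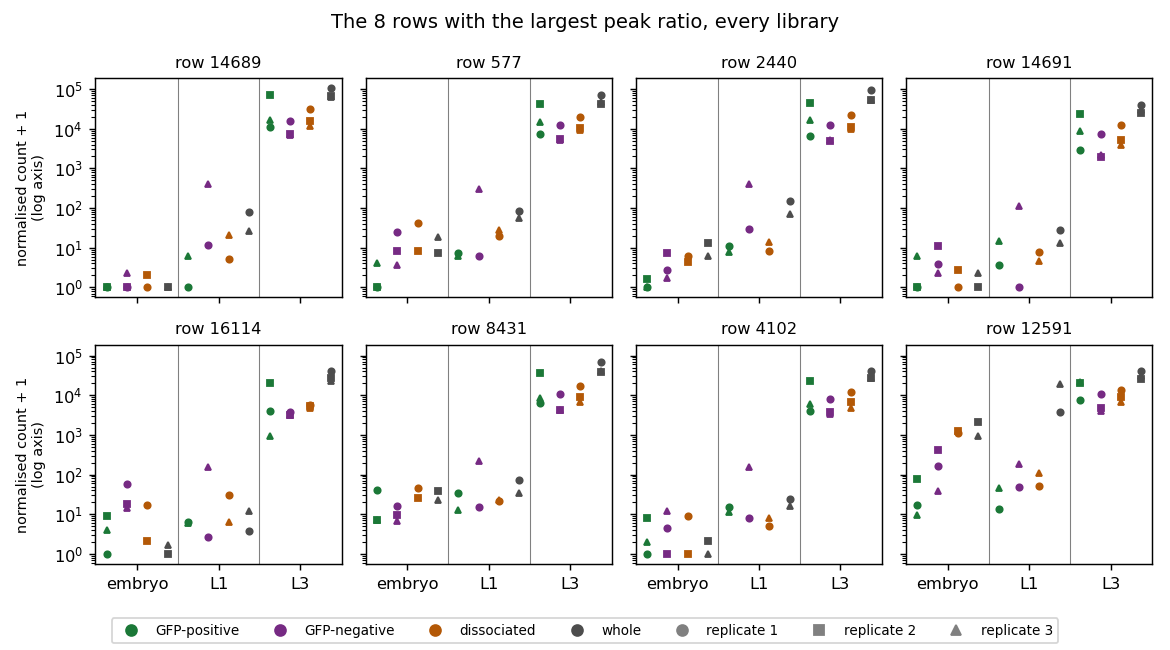
Normalised count plus 1 (log axis) in every library of the 8 rows with the largest peak ratio, with embryo, L1 and L3 from left to right, fraction by colour and replicate by symbol. All 8 rows are high in every fraction at L3, and GFP-positive replicate 2 is the highest GFP-positive library in 7 of them.

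The 2 L1 GFP-negative libraries differed in some of the top rows. Row 14689 had 401 in replicate 3 and 10 in replicate 1, and row 2440 had 394 and 28. Over all L3-peak rows, 21 were at least 4-fold higher in L1 GFP-negative replicate 3 than in replicate 1 (10.5%), against 6.12% of all rows and 25.1% of the 714 rows that passed every filter but ranked below the top 200. What set this difference was not tested.

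The 3 rows with the highest L3 GFP-positive means were 14689, 1845 and 629. Row 1845 had 18801, 35244 and 39666 in L3 GFP-positive replicates 1, 2 and 3, and 17375, 10456 and 8314 in the GFP-negative libraries. Its groups did not overlap. Row 629 had 18613, 32632 and 24264 in GFP-positive libraries, against 15662, 15010 and 6640 in GFP-negative ones. It lay near the lower limit of the sort filter, with a log2 ratio of 1.02.

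The enrichment of L3-peak rows in L3 GFP-positive cells was modest and uneven between replicates. The log2 ratio of L3 GFP-positive to GFP-negative means ran from 1.02 to 5.33 with a median of 1.53, and it reached 2 in 45 rows. In same-numbered pairs of libraries the median log2 ratio was 0.25 in replicate 1, 2.06 in replicate 2 and 1.89 in replicate 3. The GFP-positive library was the lower one of the pair in 73 of the 200 rows in replicate 1, none in replicate 2 and 33 in replicate 3. Among all 16762 rows, 40.0% were below 0 in replicate 1. A ratio of at least 1 was reached by 41, 182 and 134 rows in these pairs (20.5%, 91.0% and 67.0%). Among all rows the shares were 26.9%, 26.6% and 24.4%, so in replicate 1 the L3-peak rows were below the share of all rows.

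Only 13 rows reached that ratio in all 3 pairs, and 102 were above 0 in all 3. In 56 rows every GFP-positive library was above every GFP-negative library, and the same held for 27.0% of all 16762 rows. The rule used this contrast, so that share supports nothing here. The 2568 rows that passed the L3 sort filters but not the L3 over L1 filter had median log2 ratios of 2.28, 2.05 and 2.51 in pairs 1, 2 and 3.

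**Figure D2:**
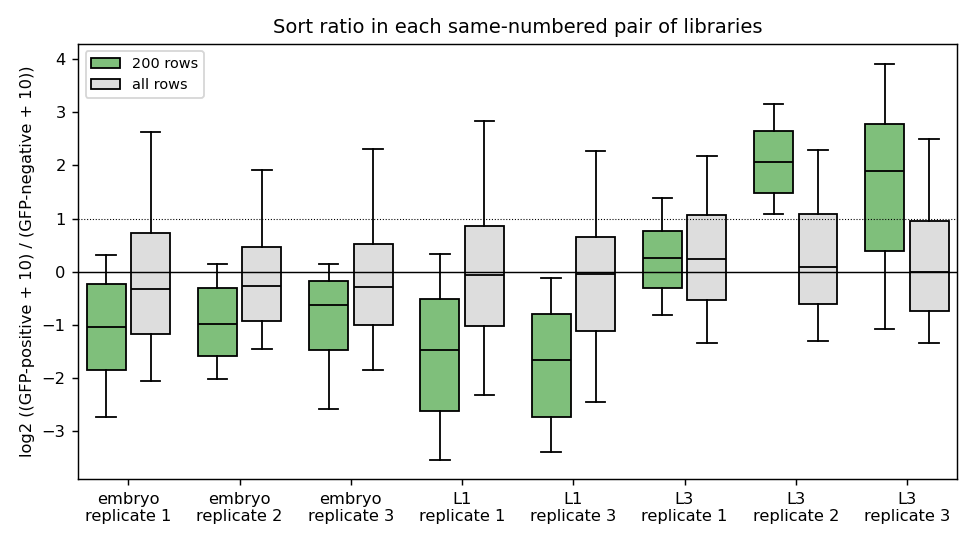
Log2 ratio of GFP-positive to GFP-negative normalised counts, each plus 10, in the 8 same-numbered pairs of libraries, for the 200 L3-peak rows (green) and all 16762 rows (grey). Boxes give quartiles and medians and whiskers the 10th and 90th percentiles; the L3-peak rows have medians of 0.25, 2.06 and 1.89 in the L3 pairs and are below 0 in every embryo and L1 pair.

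Much of the L3 signal rested on GFP-positive replicate 2. It was the highest of the 3 libraries in 98 rows, replicate 3 in 77 and replicate 1 in 25. Replicate 1 was the lowest in 122 rows. The median coefficient of variation over rows was 79.9% in L3 GFP-positive cells, 38.2% in L3 GFP-negative cells, 32.6% in dissociated L3 cells and 19.9% in whole L3 animals. Among the 2568 rows without the L1 filter it was 32.6% in L3 GFP-positive cells. In 63 rows the highest GFP-positive library was over 3 times the middle one. The largest such gap was in row 12384, picked after the values were known, with 244, 20070 and 386 in L3 GFP-positive replicates 1, 2 and 3 and 507, 5741 and 712 in GFP-negative ones.

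When replicate 2 of both sorted L3 fractions was left out, 116 of the 200 rows still passed all filters of the rule. Without replicate 3, 148 rows passed, and without replicate 1, 191 rows. These counts describe how the choice of rows depends on single libraries.

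In the earlier sorts most of these rows were lower in GFP-positive than GFP-negative cells, a direction that the rule favours by ranking rows on low embryo and L1 GFP-positive means. These values are therefore a description, and they support no statement on the tissue. In L1 the GFP-positive mean was below the GFP-negative mean in 182 of 200 rows (91%), against 55.3% of all rows. The median log2 ratio of GFP-positive to GFP-negative means was -1.7, and 141 rows were at -1 or lower. Only 2 rows were at 1 or higher. In 139 rows (69.5%) every L1 GFP-negative library was above every GFP-positive library, against 30.7% of all rows. In embryo 176 rows (88%) had the lower mean in GFP-positive cells, against 62.6% of all rows, and the median log2 ratio was -0.92. In 71 rows every embryo GFP-negative library was above every GFP-positive library, a share near the 30.4% of all rows.

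The 2568 rows without the L1 filter had median log2 ratios of 2.44 in the L1 sort and 2.01 in the embryo sort. The 714 lower-ranked rows had -1.63 and -0.68. Of these sorts, the rule asked for a higher GFP-positive level at L3 only.

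A log2 ratio of at least 1 in the embryo or L1 sort was found in 3 rows, picked after the values were known. Without that minimum, 7 rows had every L1 GFP-positive library above every GFP-negative one, against 28.2% of all rows. Row 11303 was the one L3-peak row above 1 at all stages, with log2 ratios of 1.52, 2.04 and 5.33 in the embryo, L1 and L3 sorts. It had 4240, 2380 and 1197 in L3 GFP-positive replicates 1, 2 and 3, against 101, 38 and 26 in GFP-negative libraries. These L3 groups were far apart in every pair. Its counts at earlier stages were low. The embryo GFP-positive libraries had 0, 45 and 38, against 2, 4 and 4 in GFP-negative ones, so pair 1 went the other way. At L1 the row had 75 and 28 in GFP-positive libraries, against 0 and 10. Row 10413 had 2.27 in the L1 sort, from 219 and 40 in GFP-positive libraries against 13 and 25 in GFP-negative ones. Row 7592 had 1.5 in the embryo sort and -3.73 in the L1 sort.

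Of the 13 rows with a ratio of at least 1 in every L3 pair, 10 had a negative ratio in the L1 sort and 10 in the embryo sort. Row 1714, for example, averaged 2674 in L3 GFP-positive and 707 in L3 GFP-negative cells, yet 132 in L1 GFP-positive and 823 in L1 GFP-negative cells. Row 15343 averaged 933 and 347 in the L3 fractions and 35 and 377 in the L1 fractions, in the same order.

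For most of these rows whole animals had a higher level than either sorted fraction. At L3 the whole-animal mean was above both sorted means in 139 of 200 rows (69.5%), against 32.4% of all rows. At L1 this held for 177 rows (88.5%), against 34.8%, and in embryo for 161 rows (80.5%), against 33.9%. Among the 714 lower-ranked rows the shares were 66.9% at L3, 88.1% at L1 and 62.9% in embryo. The rule used the sorted L3 levels and the low GFP-positive levels of the earlier stages. The median normalised count at L1 was 18.6 in GFP-positive cells, 79.6 in GFP-negative cells, 55.0 in dissociated cells and 994 in whole animals. Single rows spread widely around these medians, and row 16114 had 3 and 11 in whole L1 replicates 1 and 3. In bulk samples, fewer cells of a type and less RNA per cell cannot be told apart.

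Of all counts in L3 GFP-positive cells, 2.46 ± 1.1% (SD, n = 3) fell in the 200 rows. In L3 GFP-negative cells the share was 0.891 ± 0.29% (SD, n = 3). Dissociated L3 cells gave 1.86 ± 0.41% (SD, n = 3) and whole L3 animals 4.42 ± 0.56% (SD, n = 3). In L1 the shares were 0.0274 ± 0.0084% (SD, n = 2) in GFP-positive, 0.243 ± 0.039% (SD, n = 2) in GFP-negative and 0.315 ± 0.02% (SD, n = 2) in dissociated cells. The 2 whole L1 libraries gave 1.42% in replicate 1 and 3.53% in replicate 3. The 95% Wilson interval lay within 0.01 percentage points of each share. It covers counting error only, and PCR copies are not independent molecules.

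**Figure D3:**
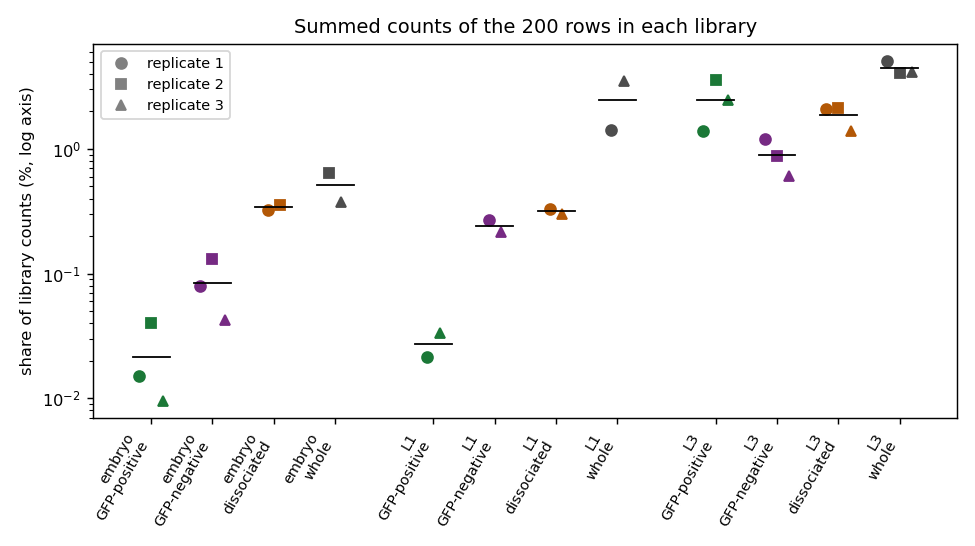
Share of each library's counts (%, log axis) that fell in the 200 L3-peak rows, by stage and fraction, with 1 point per library and a line at the group mean. At L3 the share runs from 1.38 to 3.54% in GFP-positive cells, from 0.606 to 1.19% in GFP-negative cells and from 4.03 to 5.06% in whole animals.

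**Figure D4:**
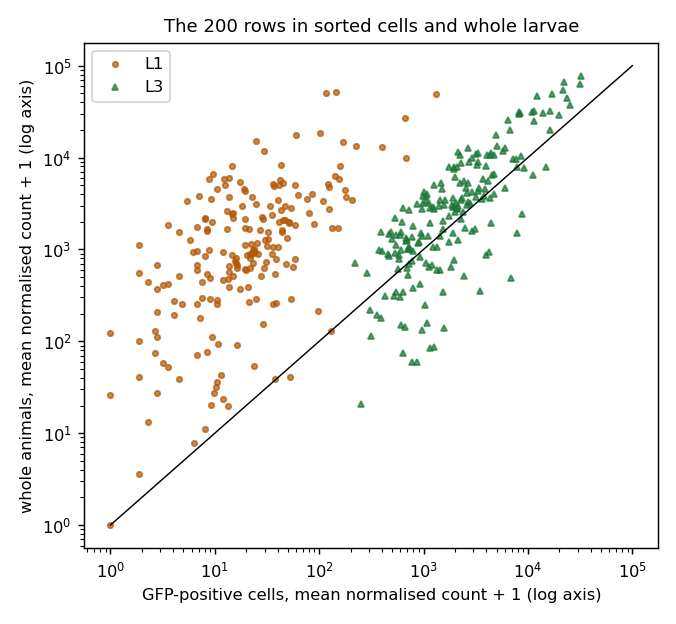
Mean normalised count plus 1 of each L3-peak row in GFP-positive cells (x) and whole animals (y), both on log axes, at L1 (orange circles) and L3 (green triangles), with a line of equality. Most L1 points lie above the line, with median counts of 18.6 (x) and 994 (y). Some L1 points lie near or below it, such as row 11303 with mean counts of 51.3 and 40.0. At L3, 139 of the 200 points lie above the line.

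Libraries of whole animals and of unsorted dissociated cells did not enter the choice of rows, so stage changes were tested in them. GFP-positive cells are a sorted part of the dissociated cells, however. The rule thus favours higher levels in dissociated L3 than dissociated L1 cells, and tests of dissociated cells are not independent of the choice. Whole animals contain the same cells, so the rule can also favour higher levels in whole L3 animals than in whole animals of earlier stages. Excesses over all rows in these stage tests are therefore descriptions. Each comparison used edgeR's quasi-likelihood test over 16758 rows with Benjamini-Hochberg adjustment, and a row was called at an adjusted p under 0.05. All 200 L3-peak rows passed the filter on low counts. Shares of all tested rows are for these edgeR calls, and counts by unadjusted p or by DESeq2 have no such share beside them.

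In whole animals, 42 of 200 L3-peak rows (21%) were higher in L3 than in L1, against 12.4% of all tested rows, and none was called lower, against 12.5% of all rows. The median log2 fold change was 1.02, against -0.17 for all rows. By unadjusted p under 0.05, 62 were higher and 1 lower, and DESeq2 called 52 higher and none lower. In 92 rows every whole L3 library was above every whole L1 library (24.8% of all rows), and in 2 the reverse held (35.0%). Thus 158 rows whose GFP-positive level was over 3 times higher in L3 than in L1 were not called in whole animals.

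The 2 whole L1 libraries differed in these rows. Of the 200, 85 were at least 4-fold higher in replicate 3 than in replicate 1 (42.5%), against 5.93% of all rows. The share was 19.3% among the 714 lower-ranked rows. At least 4-fold lower were 20 of the 200, against 758 of all 16762 rows. Row 629 had 12045 in whole L1 replicate 1 and 92043 in replicate 3, and 52697, 21856 and 38125 in whole L3 animals. Its whole L1 libraries lay on both sides of the whole L3 range. Without whole L1 replicate 3, 62 L3-peak rows were called higher.

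Rows were named for their folds by 1 rule throughout, with a mean of at least 10 CPM (counts scaled to an equal library total). The highest folds in whole L3 over whole L1 animals were those of rows 16114, 15298 and 4102. Row 16114 had 42066, 27181 and 23371 in whole L3 animals, against 3 and 11 in whole L1 animals. Its log2 fold change was 12.4 ± 1.75 (approximate SE), with an edgeR adjusted p of 4.076e-05. Row 15298 had 45758, 24659 and 24011 against 12 and 8, and a log2 fold change of 11.69 ± 1.2 (edgeR adjusted p 9.633e-07). Row 4102 had 39948, 27471 and 26859 against 23 and 15, at 10.81 ± 1.4 (edgeR adjusted p 1.584e-05). In all 3 rows each whole L3 library exceeded each whole L1 library by far more than the replicates differed. No L3-peak row was called lower, so none is named on that side.

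Against whole embryos, 133 rows (66.5%) were higher in whole L3 animals, against 26.1% of all tested rows, and none was lower, against 28.7%, by edgeR. The higher share was 53.4% among the 714 lower-ranked rows and 53.9% among the 2568 rows without the L1 filter. A share above that of all rows was thus not particular to the L3-peak rows. The median log2 fold change was 3.14, against -0.02 for all rows. No L3-peak row was lower at an unadjusted p under 0.05 or by DESeq2. In 173 rows every whole L3 library was above every whole embryo library, against 42.9% of all rows, and in none was every one below, against 36.9%.

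Row 14689 had no count in either whole embryo library, so its fold is a lower bound. Taking 3 counts over the group as the floor, it was at least 58300-fold higher in whole L3 animals. Row 16114 had 1 count and row 4102 had 2 counts in whole embryos. Their count ratios per library total were 69700 (95% counting interval 12500 to 2750000) and 35600 (9850 to 294000). All 3 rows were called higher, with edgeR adjusted p of 7.973e-07, 1.99e-06 and 3.807e-07.

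Part of the rise in whole animals came before L3. Whole L1 animals were higher than whole embryos in 94 rows (47%), against 26.3% of all tested rows, and none was lower, against 26.2%. The higher share was 50.8% among the 714 lower-ranked rows and 54.2% among the 2568 rows without the L1 filter, so it was not particular to the L3-peak rows. The median log2 fold change was 2.03, against 0.19 for all rows. No row was lower at an unadjusted p under 0.05 or by DESeq2, but 11 were called lower without whole L1 replicate 3. Without whole embryo replicate 3, 60 were called higher. In 117 rows every whole L1 library was above every whole embryo library (44.5% of all rows), and in 2 the reverse held (31.1%). Whole embryos had a median normalised count of 134, whole L1 animals 994 and whole L3 animals 2782. Whole embryos had a mean under 10 in 33 rows (16.5%), a share near the 16.8% of all rows. Whole L1 animals had such a mean in 3 rows (1.5%), against 7.49% of all rows. Whole L3 animals had it in none, against 2514 of all 16762 rows.

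**Figure D5:**
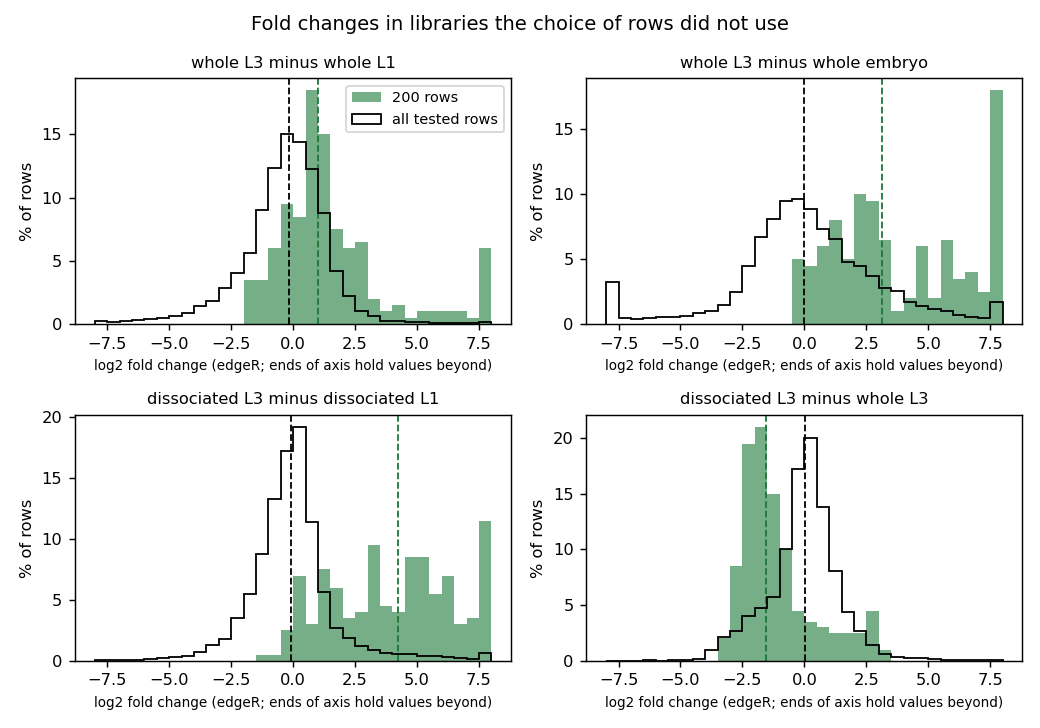
Distribution of edgeR log2 fold changes for the 200 L3-peak rows (green) and all 16758 tested rows (black outline) in 4 comparisons of libraries not used in choosing the rows, with dashed lines at the medians. The L3-peak rows have medians of 1.02, 3.14 and 4.24 in the stage comparisons and -1.53 in dissociated against whole L3 animals.

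In dissociated cells, where the rule also favours a rise, the change from L1 was larger and more common than in whole animals. Dissociated L3 cells were higher than dissociated L1 cells in 134 rows (67%), against 8.96% of all tested rows, and none was lower, against 7.61%. The median log2 fold change was 4.24, against -0.09 for all rows. No row was lower at an unadjusted p under 0.05 or by DESeq2. In 173 rows every dissociated L3 library was above every dissociated L1 library, against 23.3% of all rows, and in 2 the reverse held (30.8%). The count was 56 without dissociated L1 replicate 1, and 85 when the rows were chosen anew without replicate 2 of the L3 sort. The 714 lower-ranked rows had a median of 0.52, with 174 called higher.

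GFP-negative cells also held more of these transcripts at L3. L3 GFP-negative means were above L1 GFP-negative means in 167 of 200 rows, against 7046 of all 16762 rows. The median log2 ratio was 2.55, against -0.2 for all rows. L3 GFP-negative means were above embryo GFP-negative means in 199 rows, against 8612 of all rows, with a median of 3.28, against 0.05. The L3 GFP-negative level was part of the rule, which caps it, so no test is given. Median levels of the L3-peak rows were higher at L3 than at L1 in all 4 fractions. The rule fixes this in GFP-positive cells and favours it in dissociated cells, so the fractions are not separate evidence.

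Most L3-peak rows had a lower level in dissociated L3 cells than in whole L3 animals, and fewer passed the test. Dissociated L3 cells were lower than whole L3 animals in 54 rows (27%), against 11.5% of all tested rows, and higher in 9 (4.5%), against 7.85%. The median log2 fold change was -1.53, against 0.04 for all rows, and it was negative in 161 rows. In 145 rows every dissociated library was below every whole-animal library (28.6% of all rows), and in 21 every one was above (23.8%). Of the 714 lower-ranked rows 26.5% were called lower, and of the 2568 rows without the L1 filter 44.5%, with a median of -1.2. The share of 27% was thus not particular to the L3-peak rows. The count of 54 was 9 without dissociated replicate 3, and 14, 18, 21 and 22 without dissociated replicate 2, whole replicate 1, dissociated replicate 1 and whole replicate 2. Fitting the 2 compared groups alone gave 144.

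The lowest folds were in rows 11134, 11303 and 1128. Row 11134 had 207, 484 and 446 in dissociated L3 cells, against 4802, 4078 and 3160 in whole L3 animals (log2 fold change -3.37 ± 0.88, edgeR adjusted p 0.01043). Row 11303 is the row with log2 sort ratios of means above 1 at all stages. In dissociated L3 cells it had 138, 650 and 212, against 4067, 3537 and 1634 in whole L3 animals (-3.23 ± 0.84, edgeR adjusted p 0.01008). Row 1128 had 1221, 1751 and 1228 against 16485, 12162 and 9579 (-3.15 ± 0.84, edgeR adjusted p 0.01144). The libraries of the 2 fractions did not overlap in these rows.

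The 9 rows that went the other way included 6902, 11607 and 10951. Row 6902 had 2923, 19122 and 4923 in dissociated L3 cells, against 677, 510 and 1626 in whole L3 animals (log2 fold change 3.19 ± 0.83, edgeR adjusted p 0.00965). Row 11607 had 2085, 5828 and 1379 against 334, 140 and 586 (3.08 ± 0.82, edgeR adjusted p 0.01117). Row 10951 had 5933, 21827 and 5079 against 1216, 945 and 2341 (2.81 ± 0.8, edgeR adjusted p 0.0173). Dissociated replicate 2 was the highest library in all 3 rows. Without it none of the 9 rows was called, and the same was so without whole replicate 1 or whole replicate 2. Without dissociated replicate 3 the count was 4.

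The dissociation effect, the log2 ratio of dissociated cells to whole animals, differed between larval stages in some L3-peak rows. Both larval stages had 1 protocol. Every whole-animal library was above every dissociated library in 157 rows at L1 (30.5% of all rows) and in 78 in embryo (24.2% of all rows). At L1 the dissociated mean was below the whole-animal mean in 190 of 200 rows, with a median log2 ratio of -3.09 after 10 was added to each mean. At L3 the same measure was -1.56, with 163 rows lower, and in embryo -0.36, with 128 rows lower. Among all 16762 rows, 9584 were lower at L1, 8259 at L3 and 8606 in embryo, with medians of -0.15, 0.0 and -0.02. The 2568 rows without the L1 filter had medians of -0.57 at L1 and -1.15 at L3. The difference of the dissociation effects, L3 minus L1, had a median of 1.9, against -0.02 for all rows. It was called positive in 46 rows (23%), against 2.0% of all tested rows, and negative in none, against 0.692%. The rule favours this direction, as it selects on L3 over L1 levels in GFP-positive cells, a sorted part of the dissociated cells. The excess over all rows is therefore a description. At an unadjusted p under 0.05, 88 rows were positive and 5 negative, and DESeq2 called 76 positive and none negative.

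The number of calls changed with the L1 libraries. No row was called without dissociated L1 replicate 1 or without dissociated L1 replicate 3, and 2 were called without whole L1 replicate 3. Without whole L1 replicate 1 the count was 81, and without whole L3 replicate 2 it was 22. Fitting the 4 compared groups alone gave 29.

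Among called rows with that minimum, the largest such differences were in rows 5648 and 10951. Row 5648 had 1068, 4617 and 760 in dissociated L3 cells and 518, 509 and 748 in whole L3 animals, while it had 2 and 9 in dissociated L1 cells and 458 and 1440 in whole L1 animals. The difference was 9.37 ± 1.33 on the log2 scale (edgeR adjusted p 0.002874). Row 10951 had 55 and 67 in dissociated L1 cells, against 2992 and 7424 in whole L1 animals, and a difference of 9.07 ± 1.43 (edgeR adjusted p 0.004261). Without dissociated L1 replicate 1 the differences were 8.36 in row 5648 and 8.96 in row 10951, and without dissociated L1 replicate 3 they were 10.74 and 9.34. In both rows dissociated cells were above or near whole animals at L3 and far below them at L1.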

How the data were processed

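RNA was sequenced from whole, dissociated and sorted C. elegans samples. Per the submitters' processing notes, the tools were featureCounts 1.6.4, HISAT2 2.1.0, DESeq2 1.28.1, deepTools 3.2.0, fastp 0.20.0 and SAMtools 1.9 and the build was ce11, with no role or order given. The authors deposited raw counts per row, and counting options are not given in the sources used here, so the values of overlapping genes, of antisense partners and of close gene copies are uncertain. The deposited normalised signal equals the raw counts times 1 constant per library (largest relative deviation 5e-07).

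The test was that of edgeR 4.0.16 under R 4.3.3: filterByExpr (minimum count 10), TMM scaling, 1 mean per group over all 30 libraries and 18 residual degrees of freedom. The 6 comparisons were two-sided, and p-values measure the spread between libraries labelled as biological replicates. SE is the log2 fold change over the root of F. The procedure was tested on simulated data. Same-numbered libraries did not meet the criterion for pairing in dissociated against whole L3 samples (correlations of deviations 0.17, 0.08 and 0.18), so no replicate block was used. Total counts set the depth, and intervals cover counting error only. Rows were named by a fixed rule: the 8 largest peak ratios, the 3 highest L3 GFP-positive means, the 3 rows on each side of the limit of 200, and the highest and lowest called folds with a mean of at least 10 CPM. The rows, comparisons and this rule were chosen with earlier results of these data known. Planned lists of marker and pathway genes could not be applied to rows without gene names.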

Additional observations from a re-analysis of the deposited data

Results flagged for a closer look

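By edgeR's quasi-likelihood test of the difference itself, the effect of dissociation differed between L3 and L1 in 46 of the 200 L3-peak rows. All had a higher value at L3, a direction that the rule favours because GFP-positive cells were sorted from dissociated cells. Among the rows named by the fixed rule, the difference was 9.37 in row 5648 and 9.07 in row 10951 on the log2 scale. It was positive for both rows in each fit run. Neither row was called without dissociated L1 replicate 1 (adjusted p 0.07577 for both, differences 8.36 and 8.96) or without dissociated L1 replicate 3 (adjusted p 0.06538 for both, differences 10.74 and 9.34). Without the HiSeq X-ten libraries, which are L1 replicate 1, the differences were 9.18 and 9.69 and both were called. That fit leaves 1 library in every L1 group, and a fit without a dissociated L1 replicate leaves 1 library of dissociated L1 cells.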

How the results depend on the processing

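Of the values recomputed for counts of called rows, 145 stayed within 1.5 times the reported count and 29 did not. Many of the 145 are counts of 0 that stayed 0, as for rows called lower in whole L3 animals against embryos. With the rows chosen anew without replicate 2 of the L3 sort (added after the data were seen; 116 rows shared), 85 were higher in dissociated L3 than L1 cells, 2 were lower in whole L3 than L1 animals and 2 were higher in dissociated than whole L3 samples. Without the HiSeq X-ten libraries 1 row was lower in whole L3 than L1 animals, and 1 had a negative difference of dissociation effects. Fits on the compared groups alone, for dissociated against whole L3 samples, gave 24 higher and 144 lower rows, and for the difference of dissociation effects 29. DESeq2 gave 85 lower rows in dissociated against whole L3 samples and 76 for the difference.

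With each library left out in turn, higher rows ran from 38 to 62 in whole L3 against L1 animals (lower 0 to 2), 95 to 130 in whole L3 animals against embryos, 56 to 128 in dissociated L3 against L1 cells, and 60 to 85 in whole L1 animals against embryos (lower 0 to 11). Dissociated against whole L3 samples ran from 0 to 6 higher and 9 to 37 lower. The difference of dissociation effects ran from 0 to 81 positive and 0 to 2 negative. A group of 2 then keeps 1 library, assumed to vary like the other groups. Causes of these changes were not tested. The replicate block, for libraries that share only a number, gave 80 lower rows in dissociated against whole L3 samples and moved no count by over 1.5 times. RLE scaling, no filter, a pseudocount of 1 (179 rows shared) and TMM-scaled counts in the rule (166 shared) moved none either. Of the 14 named results, 8 lost their call in at least 1 fit and none changed direction. The 2 libraries per group in L1 and whole embryos limit those comparisons.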
